A study of Mus musculus with 4 samples.

Results

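Cytosolic ribosomal protein genes encode the proteins of the 2 subunits of the ribosome that translates nuclear messenger RNA. They were taken by name from the count tables: every row named Rpl or Rps followed by a digit, plus Rpsa, Rplp0, Rplp1 and Rplp2, without rows marked -ps (pseudogenes) and without the Rps6k kinases. This gave 91 genes of the 19616 genes listed in any table, 54 named for the large subunit and 37 for the small. All 91 were listed for the MS-LS library, 89 for OB-EB and 90 for EHF. Rpl3l was not listed for OB-EB or EHF, and Rpl10l was not listed for OB-EB.

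The 3 libraries came from gastrulating mouse embryos of the genotype TnEGP-CreERT2/+; R26Rtdtomato/R26Rtdtomato, in which Cre follows the promoter of T, a gene of the primitive streak. MS-LS embryos (mid to late streak) were taken at E6+21h after tamoxifen at E6+5h, OB-EB embryos (no bud and early bud stages, as labelled) at E7+3h after tamoxifen at E6+21h, and EHF embryos (early headfold) at E7+14h after tamoxifen at E7+7h. All received 0.08 mg tamoxifen per body weight by gavage, so that no untreated or Cre-free embryo stands beside them. Whole embryos were dissociated with papain, and the cells of several embryos shared a library, with no label that ties a cell to its embryo.

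A ribosome holds a single copy of almost every one of these proteins, and their genes are among the most strongly transcribed of dividing cells. Their transcripts share a start rich in pyrimidines, the 5′ terminal oligopyrimidine tract, through which nutrient and growth signals set their translation. Several core genes have paralogues or retrocopies, some of them used in particular tissues. Gastrulation is a time of fast division, and the embryo at this age holds epiblast, primitive streak, new mesoderm, definitive endoderm and the extraembryonic layers side by side.

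Each stage was 1 library. The EHF stage was deposited as 2 tables, in which 0 values and the names of 0 members differed, and they were counted as 1 library. The libraries held 3635 to 3994 cells and 12181436 to 20376539 UMIs (unique molecular identifiers, which mark single captured transcripts), with medians of 2620.5 to 5584 UMIs per cell, lowest in OB-EB. Pairs of libraries shared 12 to 18 cell barcodes. With 1 library per stage, stage and library cannot be told apart, so no test was run, and every interval below is exact at 95%, covers counting error only and leaves out differences between embryos. The labels' whole embryos were checked against layer markers: all 7 epiblast and all 8 visceral endoderm markers had UMIs in each library, and the 7 blood markers summed in MS-LS to 5.06 CPM (UMIs of a gene per 1000000 UMIs of the library), 4.52 in OB-EB and 302 in EHF.

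Letters of the oligopyrimidine tract were more frequent at the start sites of members than at those of all genes, but in a minority of windows. RefSeq start sites on GRCm38.p6 were available for 67 of the 91 members, as 79 windows of 30 bases (15 bases on either side of the annotated start). The letters CTTTC or CTTTT, which can form part of such a tract, were sought anywhere in a window. They stood on the transcribed strand in 22 of 79 member windows (27.8%) and in 6.96% of 32851 windows of all genes. A match need not lie at the start itself: in Rpl13a it began at base 10 of the transcript and in Rpl4 it lay before the start. On the opposite strand the shares were 5.06% and 6.34%. The windows below belong to the highest member of each library and to members that departed most between stages, with matches in capitals.
Rpl35, chr2:39005117-39005146, minus strand: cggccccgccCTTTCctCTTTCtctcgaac
Rpl13a, chr7:45128731-45128760, minus strand: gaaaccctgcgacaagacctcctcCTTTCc
Rpl4, chr9:64173372-64173401, plus strand: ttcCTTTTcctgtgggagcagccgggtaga
Rpl41, chr10:128549154-128549183, minus strand: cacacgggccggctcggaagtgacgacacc
Rpl22l1, chr3:28805493-28805522, plus strand: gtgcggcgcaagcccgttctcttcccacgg
Rpl24, chr16:55966260-55966289, plus strand: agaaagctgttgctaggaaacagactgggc
Rpl35, Rpl13a, Rpl41 and Rpl24 were higher in OB-EB than in MS-LS, while Rpl4 and Rpl22l1 were lower. In EHF over OB-EB, Rpl4 was higher and the other members shown were lower. Rpl35 had 10619 CPM in OB-EB and 5445 in EHF, and Rpl13a 1175 and 829. Rpsa, whose window (not shown) held neither set of letters, had 1099 CPM in OB-EB and 2291 in EHF. Whether the letters go with the direction of a member was not tested. The last 3 windows shown held neither set of letters, which says only that these letters are not in these 30 bases.

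The members together took nearly the same share of UMIs at each stage. The share was 27.42% in MS-LS (27.40 to 27.44), 27.55% in OB-EB (27.52 to 27.57) and 27.38% in EHF (27.36 to 27.39). The 3 stages therefore lay within 0.171 percentage points of each other, although the intervals of the 3 libraries did not overlap. Large subunit genes took 15.3%, 15.9% and 15.4%, and small subunit genes 12.1%, 11.7% and 12.0%, so summed large subunit RNA was slightly higher and small subunit RNA slightly lower in OB-EB. The large subunit sum leans on its most abundant genes. Rpl41 had 16515, 21258 and 11469 CPM and Rpl35 6158, 10619 and 5445. The median large subunit member did not share the rise, with log2 ratios of -0.06 for OB-EB over MS-LS and 0.10 for EHF over OB-EB. The order of the stages was not robust: with the UMIs of copy rows added, EHF was highest, at 28.3% against 27.9% in both other libraries. Copy rows are rows outside the set, mostly with Gm numbers or -ps names. Their transcripts share at least a run of 60 bases with the last 400 bases of a member. Each was assigned to the member with which it shared most runs.

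Single cells varied more than the stages did. The median cell gave 28.9% of its UMIs to the members in MS-LS, 28.6% in OB-EB and 28.0% in EHF, and the middle 90% of cells ran from 20.6% to 32.7% in MS-LS. Cells with more UMIs had lower shares: in MS-LS the median was 29.9% among the cells with the fewest UMIs, 29.2% among the middle ones and 27.7% among those with the most, each group being 1211 or 1212 cells. The share also moved with the mitochondrial share, from a median of 30.0% in the MS-LS cells with the least mitochondrial RNA to 25.7% in those with the most. In OB-EB the same pair of medians was 30.5% and 26.6%, and in EHF 29.0% and 27.1%. The part of depth and of mitochondrial RNA in the differences between cell classes was not tested.

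Cell classes differed far more than stages, and visceral endoderm-like cells were the low extreme of each library. Clusters were named from fixed marker lists without using the members, and classes of at least 50 cells were kept: 7 in MS-LS, 8 in OB-EB and 12 in EHF. They held 2582 of 3635, 1995 of 3994 and 2481 of 3494 cells, while 1007, 1999 and 925 cells lay in clusters left unnamed, so every order of classes below holds among named cells only. Visceral endoderm is the nutrient-absorbing outer layer of the early embryo, known by the apolipoproteins and transport proteins it secretes. Its 545 MS-LS cells gave 21.0% of their UMIs to the members (20.99 to 21.09), its 288 OB-EB cells 21.0% (20.94 to 21.09) and its 333 EHF cells 21.5% (21.42 to 21.53). The next lowest class was definitive endoderm-like at 27.3% in MS-LS, extraembryonic mesoderm and mesenchyme-like at 26.2% in OB-EB and parietal endoderm-like at 25.9% in EHF. Single visceral endoderm-like clusters ranged from 19.3% to 22.4% in MS-LS, from 19.9% to 23.1% in OB-EB and from 20.4% to 24.7% in EHF. Visceral endoderm-like cells were the lowest class in 21 of 21 combinations of library and alternative setting.

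The class at the upper end was not the same in each library and was less stable than the lower end. Notochord and node-like cells, from the midline organiser, were highest in MS-LS at 29.7% (29.49 to 29.90), although this class was 57 cells in 1 cluster. Primitive streak-like cells were highest in OB-EB at 29.1% (28.93 to 29.23) and blood-like cells in EHF at 29.4% (29.27 to 29.49). Over the 7 alternative settings of each library, the same class was highest in 7 in MS-LS, 5 in OB-EB and 6 in EHF: in OB-EB extraembryonic ectoderm-like cells led at resolution 2 and epiblast-like cells at resolution 8, and in EHF epiblast-like cells led with members among the variable genes. The unnamed cells together had 29.3%, 28.9% and 28.9%, and single unnamed clusters reached 32.7%, 33.2% and 31.3%, above the highest named class of each library. Epiblast-like cells were close to the top in each library, with 28.8%, 28.0% and 29.0%. Extraembryonic ectoderm-like cells had 28.5%, 27.0% and 28.2%, and endothelium-like cells 27.7% in MS-LS and 27.9% in EHF. Nascent mesoderm-like cells, which have just left the streak, had 28.4% in MS-LS and 27.2% in OB-EB. The distance from lowest to highest named class was 8.65 percentage points in MS-LS, 8.06 in OB-EB and 7.90 in EHF. Among the mesodermal classes of EHF the order ran from 26.7% in cardiac and pharyngeal mesoderm-like cells through 27.4% in paraxial and 27.6% in presomitic and caudal mesoderm-like cells to 27.9% in extraembryonic mesoderm and mesenchyme-like cells. Definitive endoderm-like cells were mixed: their 2 clusters had 24.3% and 29.1% in MS-LS and 21.5% and 28.8% in OB-EB, so that 1 of the clusters in OB-EB lay within the range of the visceral endoderm-like clusters. These low clusters carried definitive endoderm markers, but most of their leading genes were others. The MS-LS cluster had no list marker among its leading genes, of which Spink1, Amot, Cd59a and Srgn also led a visceral endoderm-like cluster of that library. In the low OB-EB cluster, of 41 cells, Spink1 led, Foxa1 was the only list marker among the leading genes and visceral endoderm was the second best list.

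**Figure D1:**
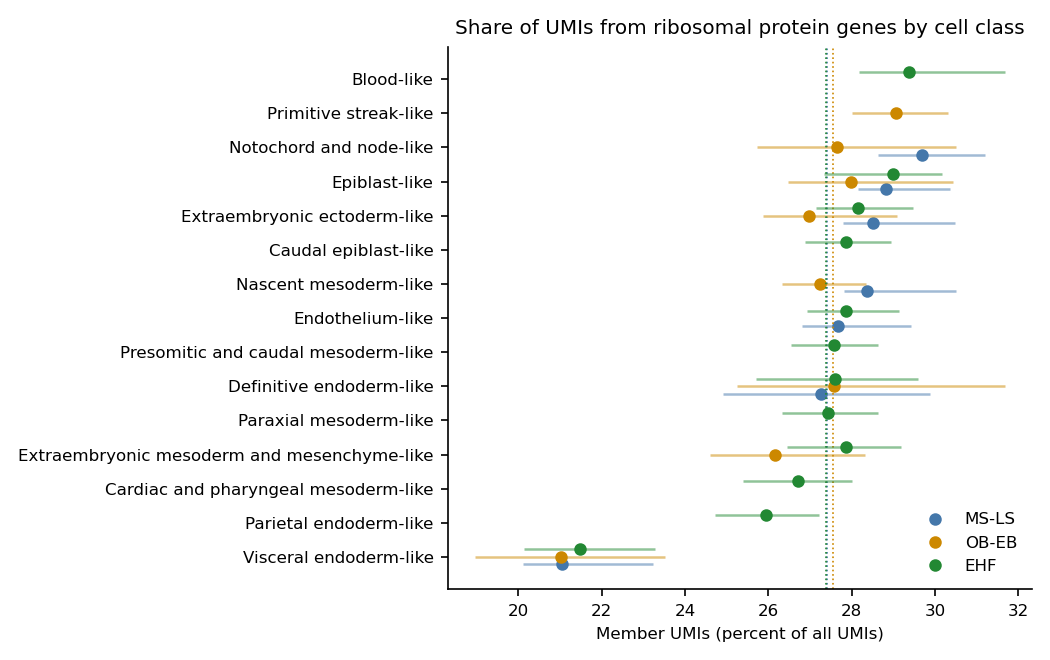
Share of UMIs from the ribosomal protein genes (x axis, percent of all UMIs) in each named cell class (y axis), coloured by library. Points are pooled shares, horizontal lines the middle 50% of single cells and dotted lines the share of the whole library; visceral endoderm-like cells sit at 21.0% to 21.5%, to the left of every other class.

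The low share of visceral endoderm-like cells was spread over nearly the whole set. Compared with the other named cells of its library, 87 of 89 members compared were lower in MS-LS, 83 of 85 in OB-EB and 87 of 88 in EHF. Of all genes compared, 47.7%, 55.2% and 60.3% were lower. The median member differed by -0.45, -0.39 and -0.35 on the log2 CPM scale, while the median of all genes compared differed by 0.04, -0.09 and -0.20. Most of these were small differences: 11, 6 and 7 members were more than 1.5-fold lower, against 21.5%, 25.7% and 29.8% of all genes compared. Rplp0, the base of the ribosomal stalk that recruits elongation factors, was the furthest below the other classes in each library, by -0.85, -0.88 and -0.79. The 8 visceral endoderm markers took 1.41%, 1.49% and 2.55% of the UMIs of these cells, and the share of the members with those rows left out of the total was 21.3%, 21.3% and 22.0%. Mitochondrial rows took 2.72%, 3.00% and 1.67% there against 1.71%, 1.93% and 1.10% in the other named cells, and the part of this in the low share was not tested.

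Levels within the set ran over several orders of magnitude. UMIs were counted at the transcript's 3′ end, so a CPM value counts transcripts and was not scaled by length. The median member stood at 2716 CPM in MS-LS, 2509 in OB-EB and 2984 in EHF. Rpl41, which encodes the smallest ribosomal protein, was highest in each library with 16515, 21258 and 11469 CPM. Rps29, a zinc-binding protein of the small subunit, came next but 1 in each, with 8844, 10122 and 7105 CPM. Between them stood Rps19 in MS-LS (8870 CPM), the large subunit gene Rpl35 in OB-EB (10619 CPM) and Rpl32 in EHF (7974 CPM), so the head of the ranking changed between stages. The 10 highest members held 28.8%, 32.7% and 25.3% of all member UMIs.

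The lowest members were paralogues that are known for other tissues and retrocopies. Rpl3l, a paralogue of muscle and heart, had 3 UMIs in MS-LS and none in the other libraries, where 3 UMIs would be 0.246 CPM in OB-EB and 0.147 CPM in EHF. Rpl10l, known from the testis, had 14 UMIs in MS-LS, 0 in OB-EB and 5 in EHF, and Rpl39l, also known from the testis, had 133, 42 and 59. These counts were under 0.15% of the parent's pair in every library. In OB-EB the low end was Rpl39l with 3.45 CPM, Rps3a3 with 6.81 CPM and Rpl6l with 10.3 CPM. In EHF it was Rpl10l with 0.245 CPM, Rpl39l with 2.90 CPM and Rps3a3 with 21.6 CPM.

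**Figure D2:**
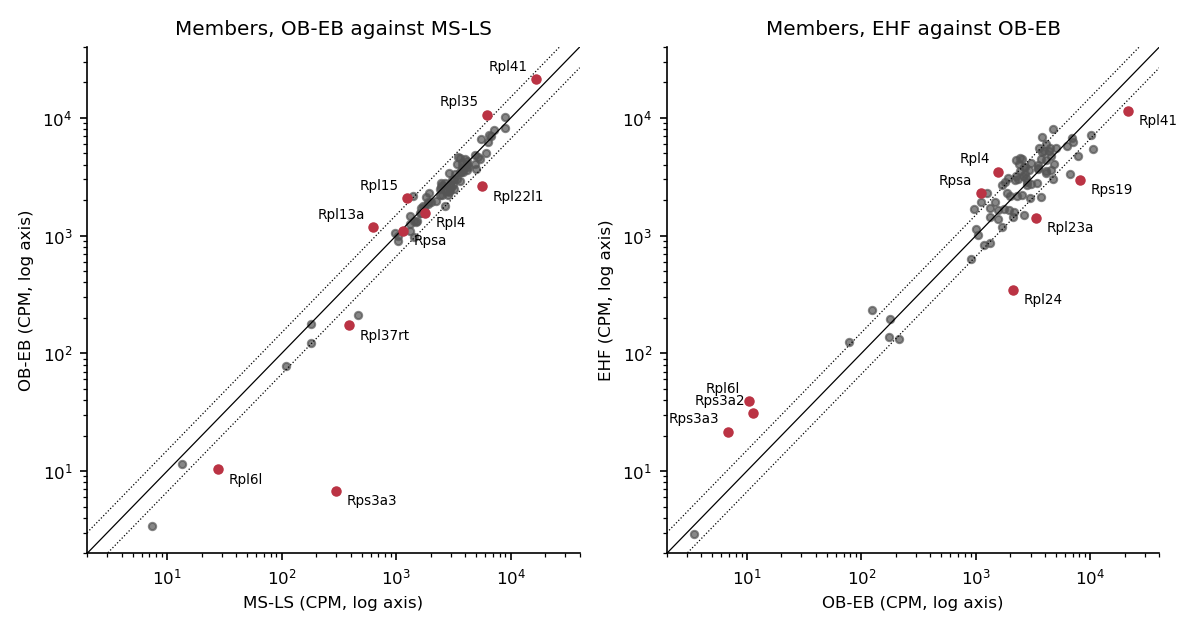
Level of each member in CPM (log axes), OB-EB against MS-LS on the left and EHF against OB-EB on the right. The solid line marks equal levels, dotted lines a 1.5-fold difference and red points named members; points hug the line on the left and scatter more on the right, with Rpl24 at 2124 CPM in OB-EB and 348 CPM in EHF.

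Between MS-LS and OB-EB the set kept its composition apart from a few genes. Of the 91 members, 89 had the 100 UMIs needed over both libraries and at least 1 in each. Of these, 4 were more than 1.5-fold higher in OB-EB, where 11.3% of 9706 genes were, and 6 were lower, where 13.6% of all genes were. The median member differed by -0.07 on the log2 scale, close to the median of all genes, -0.09, and the middle 50% of members spanned 0.28 against 0.65 for all genes. All genes include rows with as few as 100 UMIs, whose ratios carry more counting error. The narrow span was not particular to the members, since that of 77 mitochondrial ribosomal protein genes was 0.30.

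The higher members were Rpl13a, Rpl35, Rpl15 and Rpl27a, which are core proteins of the large subunit. Rpl13a, also known for silencing of inflammatory transcripts outside the ribosome, had 629 CPM in MS-LS, 1175 in OB-EB and 829 in EHF, a log2 ratio of OB-EB over MS-LS of 0.90 (0.87 to 0.94). Rpl35, which lies near the exit of the peptide tunnel, had 6158, 10619 and 5445 CPM, with a log2 ratio of 0.79 (0.77 to 0.80). Rpl15, a core large subunit gene, had 1245, 2090 and 1448 CPM, with a log2 ratio of 0.75 (0.72 to 0.77). In all 3 the OB-EB library was the high one, and EHF lay nearer to MS-LS.

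The 6 lower members were Rps3a3, Rpl6l, Rpl37rt, Rps27rt, Rpl39l and Rpl22l1, each a paralogue or retrocopy of another member by name or annotation. Rpl6l had 28.0 CPM in MS-LS and 10.3 in OB-EB (log2 ratio -1.44, from -1.73 to -1.15). Rpl37rt had 387 and 173 CPM (log2 ratio -1.17, from -1.24 to -1.10), while its parent Rpl37 had 6791 and 6971 CPM. Rps27rt had 461 and 212 CPM, while Rps27 had 7139 and 7830. With near-identical rows summed into their parents, 2 members rather than 6 were lower.

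The EHF library differed from OB-EB in more members. Of 89 compared, 20 were more than 1.5-fold higher in EHF, where 36.7% of 10453 genes were, and 12 were lower, where 11.0% of all genes were. The median member differed by 0.15 and the median gene by 0.37 on the log2 scale. Scaled by that median gene the split was 6 higher and 27 lower, where 1765 and 2296 of the 10453 genes were. EHF against MS-LS gave 13 higher, where 28.3% of 10778 genes were, and 14 lower, where 8.84% of all genes were, with a median member of 0.08 and a median gene of 0.26. Scaled by that median gene, the split was 3 higher and 18 lower, where 1662 and 1681 of the 10778 genes were. Both comparisons share the EHF library and are given side by side. By subunit, EHF over OB-EB had 10 higher and 7 lower of 52 large subunit members, with a median of 0.10, and 10 higher and 5 lower of 37 small subunit members, with a median of 0.15.

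Because the direction of a member depends on the scale, members were also placed by their distance from the median member, which no scaling moves. On that measure 10 of 89 members were more than 1.5-fold away in OB-EB over MS-LS (4 above, 6 below), 34 in EHF over OB-EB (15 above, 19 below) and 29 in EHF over MS-LS (11 above, 18 below). Of all genes, 2385 of 9706, 4061 of 10453 and 3343 of 10778 were as far from the median gene. The share of members was below that of all genes in OB-EB over MS-LS and close to it in both comparisons with EHF. The steadiest was Rpl36a, an X-linked large subunit gene, with 2926, 2755 and 3100 CPM and a largest distance of 0.02 from the median member. Rps23, Rpl30 and Rpl26 came next, each within 0.05.

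Rpl24 was the member furthest below the set in EHF among the core genes. It encodes a large subunit protein at the contact with the small subunit and lies on the GRCm38 plus strand at chr16:55966275-55971435. It had 1835 CPM in MS-LS, 2124 in OB-EB and 348 in EHF, a log2 ratio of EHF over OB-EB of -2.61 (-2.65 to -2.57), which is -2.75 against the median member. All 5 classes found in both libraries were low, from -2.90 in visceral endoderm-like to -2.70 in definitive endoderm-like cells. The copy rows assigned to Rpl24 by shared sequence held 4101, 2188 and 4153 UMIs. With them added the ratio was -2.06, so the direction held and the size was smaller.

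Rps19 and Rpl23a were low in EHF in the same way. Rps19, whose loss of 1 allele in people causes Diamond-Blackfan anaemia, had 8870, 8126 and 2979 CPM, with a log2 ratio of EHF over OB-EB of -1.45 (-1.46 to -1.43). Over the 5 shared classes it lay 1.49 to 1.69 below the median member. Rpl23a, a docking site for factors that receive the new chain at the tunnel exit, had 3250, 3342 and 1418 CPM and a log2 ratio of -1.24 (-1.26 to -1.22), with -1.52 to -1.24 over classes. For both, MS-LS and OB-EB lay close together and EHF stood apart in each class.

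Other core members lower in EHF than in OB-EB were Rps28, Rpl35, Rpl41, Rpl39, Rps27, Rpl36 and Rps10, by -0.99 to -0.60 on the log2 scale. Rpl39, which lines the peptide tunnel and is X-linked, had 4966, 3685 and 2131 CPM and so went down in steps from the earliest to the latest library. Rpl41 and Rps28 were highest in OB-EB and lowest in EHF. Adding copy rows changed the size for Rpl41: its copy row Gm10076 held 9324, 2445 and 42725 UMIs, and the EHF over OB-EB ratio was -0.89 without and -0.66 with it.

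The furthest above the set in EHF over OB-EB were retrocopies with few UMIs: Rpl6l had 28.0, 10.3 and 39.2 CPM in the 3 libraries, Rps3a2 13.4, 11.4 and 31.1, and Rps3a3 297, 6.81 and 21.6. Among core members Rpl4 and Rpsa led. Rpl4, which reaches into the peptide tunnel, had 1796, 1570 and 3497 CPM, with a log2 ratio of EHF over OB-EB of 1.16 (1.13 to 1.18). Rpsa, a small subunit protein also described as a laminin receptor precursor, had 1157, 1099 and 2291 CPM and a ratio of 1.06 (1.03 to 1.09). Against the median member they lay 0.78 to 1.10 and 0.62 to 0.96 above it over the 5 shared classes. Rpl8, Rps4x, Rpl12 and Rplp0 followed with log2 ratios of 0.98, 0.93, 0.88 and 0.85. Rps3, Rpl7, Rpl7a, Rps3a1, Rpl32, Rps20, Rpl10 and Rps12 had ratios of 0.66 to 0.84, as did Rpl7l1. Scaled by the median gene, 6 members stayed past 1.5-fold, so for members with a ratio between 0.58 and 0.95 the call rests on the scale.

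The stalk proteins did not move together. Rplp0, which anchors the stalk, had 4252, 3811 and 6861 CPM, and its log2 ratio of EHF over OB-EB was 0.85 (0.83 to 0.86). Its partners Rplp1 and Rplp2, which sit on it as dimers, had 4117, 4319 and 5227 CPM and 3808, 3684 and 4486 CPM, with ratios of 0.28 for both. Against the median member these are 0.70 for Rplp0, 0.13 for Rplp1 and 0.14 for Rplp2. The 3 proteins assemble in fixed numbers, and their transcripts were thus not in a fixed ratio over the libraries.

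**Figure D3:**
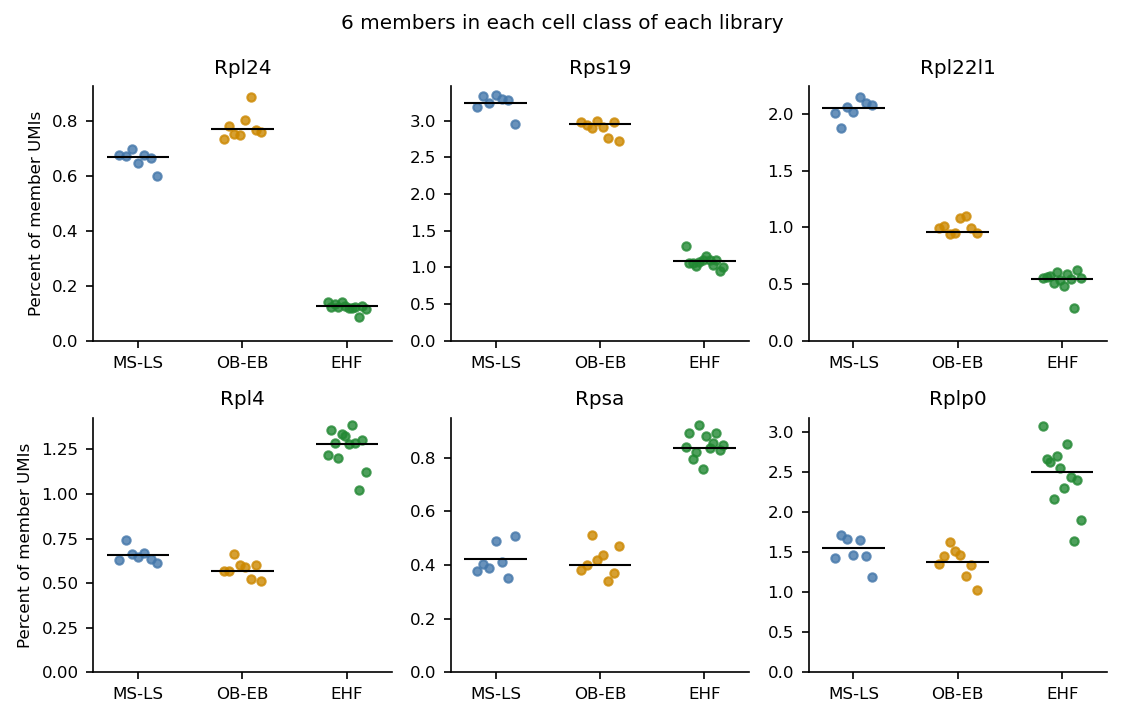
Share of member UMIs (y axis, percent) of 6 members in each library (x axis). Each point is a named cell class, the black line the whole library; Rpl24, Rps19 and Rpl22l1 are lower and Rpl4, Rpsa and Rplp0 higher in EHF, and for the members other than Rplp0 the classes of EHF do not overlap those of the other libraries.

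Rpl22l1 and its parent Rpl22 exchanged their order between the stages. Both encode a large subunit protein that lies on the ribosome's surface, and Rpl22 is known to restrain the expression of Rpl22l1. Rpl22l1 had 5633 CPM in MS-LS, 2636 in OB-EB and 1498 in EHF, and Rpl22 had 1524, 1324 and 1714. Rpl22l1 was thus 78.7% of the pair (78.48 to 78.93) in MS-LS, 66.6% (66.14 to 66.99) in OB-EB and 46.6% (46.24 to 47.01) in EHF. Its log2 ratio was -1.10 from MS-LS to OB-EB and -0.82 from OB-EB to EHF, and each shared class lay below its median member in both steps. In EHF the level ranged from 762 CPM in parietal endoderm-like cells to 1727 CPM in presomitic and caudal mesoderm-like cells. The reading frames are distinct enough for reads to be told apart, with 70.2% identity over 369 aligned bases; the last 60 coding bases that align without a gap differ at 18 positions, in capitals.
Rpl22: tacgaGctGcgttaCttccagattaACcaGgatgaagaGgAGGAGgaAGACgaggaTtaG
Rpl22l1: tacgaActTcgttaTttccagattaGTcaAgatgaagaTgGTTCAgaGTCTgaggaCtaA
The closing stretch of each encodes the acidic end of the protein.

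Rps4l, a retrocopy of the X-linked Rps4x, was the member with the widest range over cell classes in MS-LS and EHF. In OB-EB it had 14 UMIs in notochord and node-like cells, under the 20 needed in every class, and was not ranked. It had 182, 123 and 233 CPM in the 3 libraries, under 6.5% of its pair with Rps4x. In extraembryonic ectoderm-like cells, the trophoblast stem cell compartment, it had 358 CPM in MS-LS, 235 in OB-EB and 600 in EHF. Its lowest classes were endothelium-like in MS-LS (60.4 CPM), extraembryonic mesoderm and mesenchyme-like in OB-EB (87.2 CPM) and endothelium-like in EHF (98.6 CPM). As a share of member UMIs its range over classes was 2.52 on the log2 scale in MS-LS and 2.62 in EHF, where the median member's range was 0.21 and 0.35. Parietal endoderm-like cells followed in EHF with 401 CPM. Visceral endoderm-like cells had 234 CPM there, close to the 233 CPM of the whole library. Rps4l was among the 87 of 88 members lower in these cells than in the other named cells of EHF. The high classes of EHF were thus extraembryonic ectoderm-like and parietal endoderm-like. The 2 reading frames are 80.1% identical, and the last 60 gapless coding bases differ at 3 positions.
Rps4x: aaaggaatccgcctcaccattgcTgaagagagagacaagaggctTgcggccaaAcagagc
Rps4l: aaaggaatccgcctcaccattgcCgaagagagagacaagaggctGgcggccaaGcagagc
The near identity here limits how well reads within this stretch separate the pair, although neither transcript shared a run of 60 bases with the last 400 bases of the other.

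Rps3a3 was present in a minority of MS-LS cells and nearly absent from the other libraries. It is annotated as a processed pseudogene of Rps3a1, on the plus strand at chr13:108670603-108671397. It had 5340 UMIs in MS-LS, 83 in OB-EB and 441 in EHF, a log2 ratio of OB-EB over MS-LS of -5.45 (-5.78 to -5.13). In MS-LS, 974 of 3635 cells (26.8%) had a UMI, with a median of 5 in those cells, and the 728 cells with 3 or more held 94.0% of its UMIs. In OB-EB, 83 cells (2.08%) had 1 UMI each, and in EHF 404 cells (11.6%) had a UMI and 3 had 3 or more. The cells with 3 or more were found in each MS-LS class, from 8.77% of notochord and node-like to 26.7% of endothelium-like cells, and among cells with Xist only (32.2% with a UMI) and with Y-linked UMIs only (24.0%).

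In those cells the parent gene was lower by about as much. The 728 MS-LS cells with 3 or more Rps3a3 UMIs had 1201 CPM of Rps3a3 and 1978 CPM of Rps3a1, and the 2661 cells without it had 2963 CPM of Rps3a1. The sum of both rows was 3179 and 2963 CPM. The cells were chosen by their Rps3a3 count, so their Rps3a3 level is a description. The total share of the members was 27.7% and 27.4% in these groups. The reading frames are 98.9% identical, with 2 differences in the last 60 coding bases.
Rps3a1: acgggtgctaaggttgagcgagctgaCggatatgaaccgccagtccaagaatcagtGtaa
Rps3a3: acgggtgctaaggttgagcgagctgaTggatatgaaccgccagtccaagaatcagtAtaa
Which reads were assigned to which row therefore turns on single bases, and the embryo of each cell is not given by the labels.

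The shares of the other paralogues in their pairs also differed between libraries. Rpl36al, a retrogene of Rpl36a, was 24.9%, 27.5% and 24.5% of its pair, and visceral endoderm-like cells had its highest share of member UMIs in each library (0.435%, 0.486% and 0.482%). Rps27l, a p53-responsive paralogue of Rps27, was 27.1%, 18.5% and 26.1%, with OB-EB the low one. Rps27rt, whose reading frame is 100% identical to that of Rps27 so that the rows are uncertain, was 6.07%, 2.64% and 2.70%. Rpl37rt was 5.39%, 2.42% and 1.97%, and Rpl7l1 7.68%, 6.58% and 6.12%. Rps3a2 was 0.489%, 0.478% and 0.757% of its pair with Rps3a1, and Rpl6l 0.963%, 0.303% and 1.38% of its pair with Rpl6. Rps19bp1, a nucleolar partner of Rps19 rather than a ribosomal protein, had 180, 178 and 197 CPM and did not share the low level of Rps19 in EHF.

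**Figure D4:**
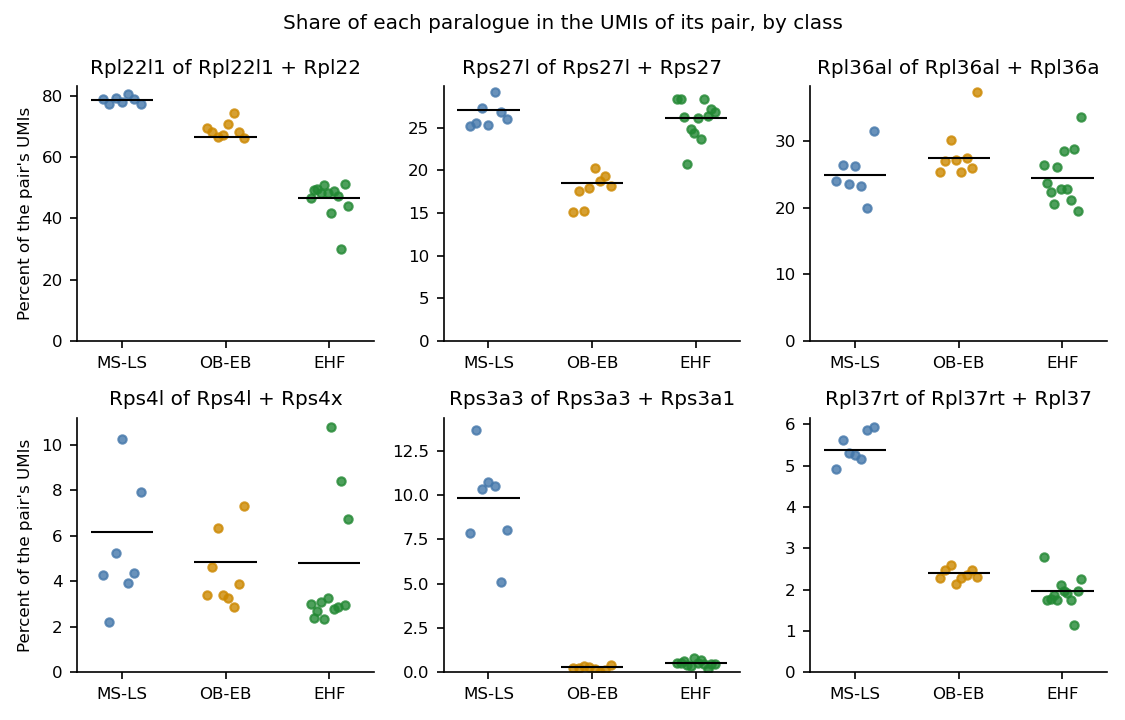
UMIs of 6 paralogues and retrocopies as percent of the UMIs of the pair (y axis) in each library (x axis). Points are named cell classes and black lines whole libraries; Rpl22l1 steps down from 78.7% to 66.6% and 46.6%, and Rps3a3 is near 0 outside MS-LS.

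Over cell classes most members kept their place. With at least 20 UMIs in every class, 85, 83 and 83 members could be compared, and the median member's share of member UMIs ranged over 0.21 in MS-LS, 0.23 in OB-EB and 0.35 in EHF on the log2 scale, with more classes in EHF. The 5 widest were Rps4l, Rps3a3, Rpsa, Rplp0 and Rpl36al in MS-LS, Rplp1, Rps4x, Rplp0, Rps27rt and Rpsa in OB-EB, and Rps4l, Rpl22l1, Rps27rt, Rps19bp1 and Rplp0 in EHF. Rplp0 was in each of these lists: its share was highest in endothelium-like cells in MS-LS (1.72%), extraembryonic ectoderm-like in OB-EB (1.63%) and blood-like cells in EHF (3.08%). Its lowest class was visceral endoderm-like in MS-LS (1.19%) and OB-EB (1.04%) and parietal endoderm-like in EHF (1.64%). Blood-like cells also had the highest share of Rplp1 (2.22%), Rps27rt and Rps19bp1 in EHF and the lowest of Rps4x (1.11%).

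The 4 X-linked members, Rps4x, Rpl10, Rpl36a and Rpl39, were compared between cells with Xist and no Y-linked UMI and cells with Y-linked UMIs and no Xist. Xist coats the inactive X chromosome of female cells. The log2 ratio of Rps4x was 0.09 in MS-LS, -0.06 in OB-EB and 0.12 in EHF, and those of Rpl10, Rpl36a and Rpl39 lay between -0.08 and 0.10. Eif2s3x, an X-linked translation factor that is known to escape inactivation, differed by 0.48 (0.35 to 0.61), 0.25 (0.11 to 0.39) and 0.36 (0.20 to 0.53). The median member differed by 0.03, 0.06 and 0.00. X-linked members were thus within 0.12 of the median member, on 869 and 812, 1120 and 653, and 1870 and 312 cells. The members as a set were narrow here, with quartiles of -0.02 and 0.02 in EHF, and some X-linked ones stood at the ends. Ranked from the top, Rps4x was 1 of 88 in EHF and 84 of 85 in OB-EB, and Rpl39 was 88 of 88 in MS-LS. Others lay inside, such as Rpl10 and Rpl36a at 37 and 49 in EHF.

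Over single cells the members varied little beyond counting error, with named exceptions. The spread of a member's share of member UMIs beyond counting error, as a coefficient of variation, had a median of 9.16% in MS-LS, 11.5% in OB-EB and 10.3% in EHF over 85 to 88 members with at least 200 UMIs. Rps3a3 was highest in MS-LS (170%) and Rps4l in OB-EB (64.5%) and EHF (89.7%). Rps4x came next in OB-EB at 59.8%, against 28.6% in MS-LS, and Rps15a reached 36.7% there. The 33 OB-EB cells with the highest Rps4x share, 1% of the cells with at least 500 member UMIs, held 5.26% of the Rps4x UMIs and 1.11% of all UMIs, and came from 7 named classes. These cells, chosen by Rps4x, gave 3.93% of member UMIs to Rps15a against 1.23% in the rest, but 0.739% against 0.696% to Rpl10. Over 3318 OB-EB cells the shares of Rps4x and Rps15a had a correlation of 0.54, with library and depth shared, against 0.26 in MS-LS and 0.23 in EHF.

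The distance of a member from the set moved with the annotated length of its transcript. The annotated length of 86 placed members had a median of 882 bases. It is that of the longest principal coding transcript of each gene, such as 5179 bases for Rps15a. That transcript need not be the one these cells express. Over the 77 members outside the paralogue list, Spearman's rho of length with the log2 ratio was -0.21 for OB-EB over MS-LS, 0.37 for EHF over OB-EB and 0.39 for EHF over MS-LS, as a description across genes of the same libraries. Over other protein-coding genes it was 0.24, -0.17 and -0.00. In EHF over OB-EB the 17 members up to 600 bases had a median of -0.13, the 32 up to 1000 bases 0.13 and the 28 longer ones 0.34. The other genes in the same length classes had medians of -0.37, 0.18 and 0.39, so genes with short annotated transcripts were the low ones in both sets. The members lay on 19 chromosomes, with 14 on chromosome 7.

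**Figure D5:**
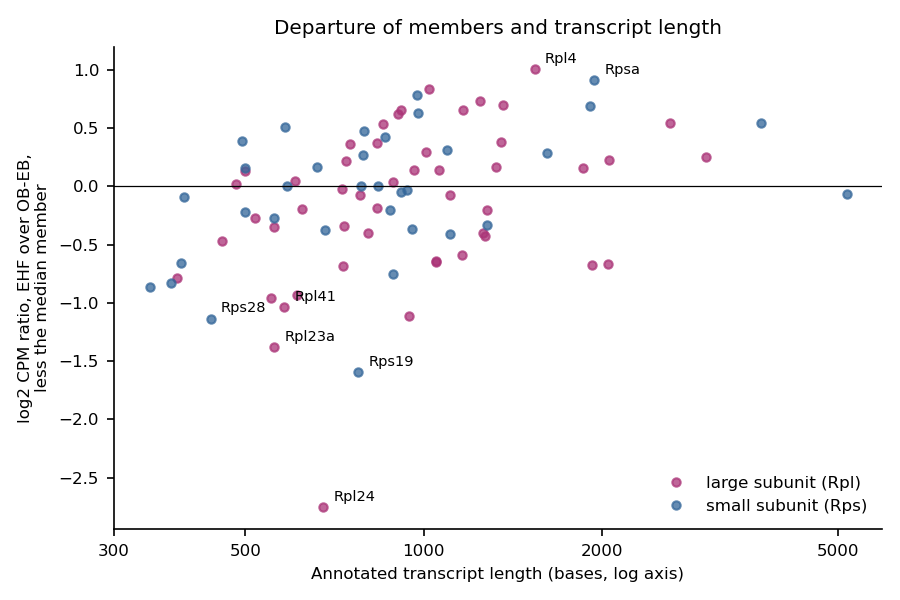
Distance of each member from the median member in EHF over OB-EB (y axis, log2 CPM ratio) against its annotated transcript length (x axis, bases, log axis). Pink points are large and blue points small subunit genes; short members tend to lie below 0 and long ones above it, with Rpl24 at -2.75 apart from the rest.

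Other gene groups of translation were read beside the members. Translation factors and other transcripts with oligopyrimidine starts made a list of 16 genes. Of these, 0 were more than 1.5-fold higher in OB-EB than in MS-LS, where 11.3% of all genes were. In the same comparison 3 (18.8%) were lower, where 13.6% of all genes were (median -0.37, against -0.09). In EHF over OB-EB 10 of the 16 were higher, where 36.7% of all genes were, and 0 lower, where 11.0% were (median 0.82, against 0.37). In EHF over MS-LS 5 were higher, where 28.3% of all genes were, and 0 lower, where 8.84% were (median 0.27, against 0.26). Eef1a1, which brings transfer RNA to the ribosome, had 2346, 1406 and 3994 CPM, and Eef2, which moves the ribosome along, 571, 466 and 1011. Tpt1 had 2117, 1055 and 1584 CPM. Of the 16 genes, 12 were lowest in OB-EB and 4 were highest there: Eif3e, Eif2s3x, Nap1l1 and Hnrnpa1.

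Ribosome biogenesis genes had medians of -0.16, 0.47 and 0.26 over 32 genes in the same 3 comparisons, where all genes had -0.09, 0.37 and 0.26. Of the 32, 3 were higher and 7 lower, 12 higher and 3 lower, and 6 higher and 1 lower, or 9.38%, 37.5% and 18.8% higher against 11.3%, 36.7% and 28.3% of all genes. The shares lower were 21.9%, 9.38% and 3.1%, against 13.6%, 11.0% and 8.84% of all genes. Nop10, a protein of the particles that modify ribosomal RNA, went the other way from the medians of this list, with 2107, 2446 and 1133 CPM. Mitochondrial ribosomal protein genes, of which 77 of 81 were compared, had medians of -0.31, 0.39 and 0.07, with 3 higher and 7 lower, 18 higher and 6 lower, and 5 higher and 8 lower. The shares higher were 3.90%, 23.4% and 6.49%, each below that of all genes. Those lower were 9.09%, 7.79% and 10.4%, against 13.6%, 11.0% and 8.84% of all genes. Among ribosomal proteins outside the naming rule, Fau had 2846, 3172 and 2818 CPM and Rack1 1121, 898 and 1853. The -ps rows together held 0.172%, 0.109% and 0.284% of UMIs. Of the 207 rows, 83 met the minimum of UMIs for comparing EHF with MS-LS. Of these 83, 59 (71.1%) were more than 1.5-fold higher in EHF, where 28.3% of all genes were, and 11 (13.3%) were lower, where 8.84% were. Their median was 1.47, against 0.26 for all genes. A row with few UMIs in MS-LS could meet that minimum through EHF, such as Rps12-ps3 with 12 and 445 UMIs. The 71.1% and the median therefore describe the rows compared, not all -ps rows. The summed shares do not depend on that minimum.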

How the data were processed

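The authors deposited UMI counts per gene and cell (10x Single Cell 3′ v2, Cell Ranger 3.0.2, GRCm38 with a tdTomato reporter added), in which every cell held at least 1001 UMIs. UMIs were summed over cells and divided by all UMIs of the library (CPM). Shares have Clopper-Pearson intervals and ratios of 2 sums exact conditional ones, at 95%. A gene was compared between libraries with at least 100 UMIs over both libraries and 1 in each, and called past 1.5-fold. The calls and intervals were run on simulated Poisson counts, which follow the assumption behind the intervals. Those counts hold no differences between cells, embryos or libraries, so they check the calculation only. Clusters (Seurat 5.3.0 in R 4.3.3: 2000 variable genes, 50 components, resolution 4.5) were named from 20 marker lists, with the members held out of the variable genes. Scrublet (scanpy 1.11.5) called 9, 0 and 14 doublets, under 0.5% of cells, so the 5% highest scores were left out in an alternative. Start windows came from RefSeq tables (GRCm38.p6) and coding sequences and positions from GENCODE M21 (GRCm38). The authors' methods name Ensembl release 86.

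The members and lists were chosen with earlier results of these data known. Genes were named by rule: the 3 furthest from the median member in each direction of each comparison, the 5 widest over classes, the 3 highest and 3 lowest levels of each library, and the paralogue, X-linked and stalk lists. Rpl36a, Rps23, Rpl30 and Rpl26, and single members beside these, were named after their values were seen. Some genes, and a share summed with them, are not reported here.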

Additional observations from a re-analysis of the deposited data

How the results depend on the processing

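Each stage is 1 library, so every alternative concerns counting and choices, not embryos. No paired analysis was possible because each stage is 1 library. Of 165 alternatives of the main values 113 stayed within the limit, 49 moved and 3 were reversed, and the 60 alternatives of the named departures kept their sign. The reversed ones were the median member when scaled by the median gene, at 0.021 rather than -0.067 on the log2 scale for OB-EB over MS-LS, -0.22 rather than 0.15 for EHF over OB-EB and -0.18 rather than 0.08 for EHF over MS-LS. These 3 were added after seeing the data. Leaving out either EHF table was not run, since both hold the same values. The shares of MS-LS, OB-EB and EHF were 27.9%, 28.1% and 27.7% without mitochondrial rows in the total, 28.1%, 28.2% and 27.7% as a mean over cells, 27.4%, 27.2% and 27.3% in cells with at least 2000 UMIs, 28.9%, 28.3% and 28.2% in cells with 2000 to 4000, 27.5%, 27.6% and 27.4% within 3 SD of the mean mitochondrial share, 26.3%, 26.9% and 26.9% without the paralogue list, 27.2%, 27.2% and 27.1% in cells with Xist, and, in settings chosen after seeing the data, 28.0%, 28.1% and 28.1% with -ps rows, Fau and Rack1 and 27.9%, 27.9% and 28.3% with copy rows; without the 5% highest Scrublet scores EHF gave 27.4%. The order of the stages changed among these settings.

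For OB-EB over MS-LS, 7 members were higher and 13 lower at the lowest fold tried, 0 higher at 2-fold and 2 lower with copies, where 6 rather than 10 departed from the median member. For EHF over OB-EB, scaling by the median gene gave 6 higher and 27 lower, the lowest fold 32 and 20, and 2-fold 5 and 3. For EHF over MS-LS the numbers higher were 3 with that scaling, 29 at the lowest fold and 1 at 2-fold, and 9 were lower at 2-fold and with copies. The share of all genes past these other folds, or with copies, was not computed. These counts therefore show only how the number of members moves with the setting, not how members compare with other genes. The distance between the extreme classes was 8.16 points in MS-LS and 7.29 in EHF at resolution 2, and in OB-EB 7.12 at resolution 8, 8.35 with members among the variable genes and 8.29 without high Scrublet scores. The cause of these moves was not tested. Depth limits the lowest members: at 3 UMIs, levels under 0.147 to 0.246 CPM were not detectable.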
